A study of Mus musculus with 4 samples.

Results

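Arginine sits at a branch point of macrophage metabolism, and 8 genes of this branch point were followed across 4 conditions of mouse bone marrow-derived macrophages (BMDMs). They were the arginine transporter Slc7a2, the inducible nitric oxide synthase Nos2, the arginine-making enzymes Ass1 and Asl, the polyamine-making enzymes Odc1, Srm and Sms, and the polyamine-acetylating enzyme Sat1. Every non-control probe that the array annotation assigns to one of these gene names was taken, which gave 15 of the 55681 probes and 8 of the 23688 genes with a symbol. Bone marrow of 10-week-old C57BL/6J mice was cultured for 6 days with L929 cell supernatant and then stimulated for 2 days. The stimulus of wild-type cells was either IL-4 (50 ng per ml, called M2) or IFN-γ (20 ng per ml) with LPS (100 ng per ml, called M1). Cells that the labels call p18 (2400001E08Rik) -/-, an older name of Lamtor1, received the same IL-4 (Lamtor1-deficient M2), and wild-type cells received IL-4 together with the mTOR kinase inhibitor Torin1 at 250 nM (Torin1-treated M2). The study's methods describe the Lamtor1-deficient mice as Lamtor1 flox/flox with LysM-Cre, a Cre that is active in myeloid cells, so the deletion depends on that promoter. The study used Lamtor1 flox/flox littermates without Cre as controls and also bought C57BL/6J mice, and the labels of these arrays say wild type only, so the control genotype was not settled here. Each condition was measured on 1 Agilent 1-colour array, so no test and no p-value was possible, and the values below describe 4 arrays.

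As background, L-arginine enters macrophages through cationic amino acid transporters and is then used by competing enzymes. One use of arginine leads to ornithine, which feeds the polyamines putrescine, spermidine and spermine as well as proline. Inducible nitric oxide synthase instead oxidizes arginine to nitric oxide and citrulline, and citrulline can be turned back into arginine by argininosuccinate synthase and argininosuccinate lyase. Nos2 is a classic gene of mouse macrophages given IFN-γ and LPS. Lamtor1 is a subunit of the Ragulator, the lysosomal scaffold on which mTORC1 is activated. The comparisons with the M2 array ask how the genes of the branch point differ without Lamtor1, with mTOR inhibited and after the opposite stimulus.

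The signal used here is the processed intensity of a probe divided by the 75th percentile of its array, so a value of 1 is the signal at that percentile. The 75th percentile lay between 287 and 595 intensity units. A shift of each array to its median in its place moved every M1 log2 ratio to M2 by −0.82, which is more than 1.5-fold. From probes spotted at least 8 times, the technical SD of a log2 ratio between arrays was 0.088 to 0.0997, and 2 such SDs served as the limit below which levels were not separated. This spread lies within the arrays and leaves out any difference between cultures or between hybridizations. In the 4 comparisons the limit was 0.176 to 0.199. The error that the scanner software gives for a log2 ratio of the 8 genes was larger, at 0.204 or more. Lamtor1 itself kept 2.34% of its M2 signal on the Lamtor1-deficient array. All 6 macrophage markers examined (Adgre1, Csf1r, Cd68, Itgam, Mertk and Fcgr1) were well above background on every array, with summed normalized signals of 670 in M2, 379 in M1, 463 without Lamtor1 and 523 with Torin1. Of these, Adgre1 and Fcgr1 fell without Lamtor1 (log2 ratios −2.57 and −4.96) and with Torin1 (−2.81 and −4.61). In M1 Fcgr1 rose (2.49), while Csf1r (−1.24) and Adgre1 (−1.04) fell. Csf1r alone held 485 of the M2 sum. Among 4 neutrophil granule genes with a value on every array (Mpo, Ngp, Camp and Ltf), the summed normalized signal was 10.55 in M2, 0.443 in M1, 0.670 without Lamtor1 and 0.355 with Torin1. Elane, a further gene of that list, had no usable spot on the Torin1 array and log2 ratios to M2 of 0.58 without Lamtor1 and 2.07 in M1, and Ly6g was not analysed here. For 6 fibroblast markers (Col1a1, Col1a2, Col3a1, Dcn, Pdgfra and Lum) the sums were 43.2, 16.0, 55.9 and 15.3 in the same order. Col1a2 held 30.9 of the M2 sum, and Dcn rose in M1 (log2 ratio 2.55) although the sum fell. For 5 lymphocyte markers (Cd3e, Cd3g, Cd79a, Ms4a1 and Nkg7) the sums were 12.9, 15.0, 13.1 and 7.43 in the same order, with 10.2 of the M2 sum from Nkg7. Of these markers, the B-cell marker Ms4a1 was not well above background on any array, and Cd3g only on the Lamtor1-deficient array. Cd79a fell without Lamtor1 (log2 ratio −1.84) and with Torin1 (−1.61). In these bulk samples, fewer cells of a type and less RNA per cell cannot be told apart.

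Nos2, the enzyme that makes nitric oxide in activated macrophages, was higher than in M2 in all 3 other conditions. Its normalized signal was 581 in M1, 0.384 in M2, 18.6 without Lamtor1 and 16.5 with Torin1. M2 was the lowest array and M1 the highest, with the Lamtor1-deficient and Torin1 arrays between them. Over M2, Nos2 was 48.6-fold higher without Lamtor1 (log2 ratio 5.60) and 42.9-fold higher with Torin1 (5.42), although both conditions received IL-4 and no IFN-γ or LPS. In M1 it was 1514-fold higher (10.56), or 857-fold (9.74) after the shift of each array to its median. These were the 13th, 10th and 3rd highest log2 ratios among genes well above background on both arrays. Lamtor1-deficient and Torin1-treated cells were not separated, with a direct log2 ratio (Torin1-treated over Lamtor1-deficient) of −0.18 beside a limit of 0.185. That ratio ran from −0.49 after the shift of each array to its median to 0.06 with quantile normalization, and it also passed the limit with normexp correction (−0.24) and, barely, with outlier spots kept (−0.188), so this call depends on the processing.

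**Figure D1:**
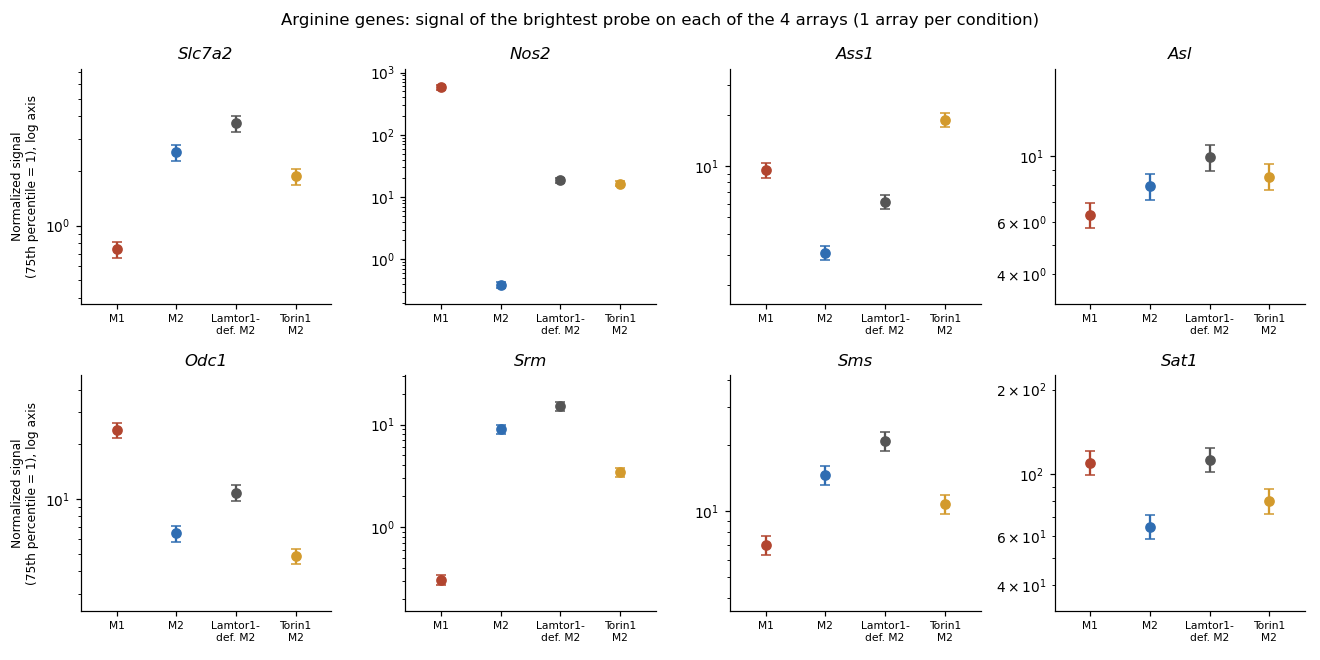
Normalized signal of the brightest probe of each gene (vertical log axis, in multiples of the array's 75th percentile) on the M1, M2, Lamtor1-deficient M2 and Torin1-treated M2 arrays, with bars for the error that the scanner software gives for the signal, about 10% of it. Nos2 is lowest on the M2 array (0.384) and highest on the M1 array (581), while Ass1 stands higher with Torin1 than without Lamtor1.

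Slc7a2, the cationic amino acid transporter that supplies arginine to these enzymes, stayed within 2-fold of M2 without Lamtor1 and with Torin1. Its normalized signal was 0.742 in M1, 2.54 in M2, 3.67 without Lamtor1 and 1.87 with Torin1. The Lamtor1-deficient array was the highest and the M1 array the lowest, and all neighbouring levels were separated. The log2 ratios to M2 were 0.53 without Lamtor1 and −0.44 with Torin1, and Slc7a2 fell 3.42-fold in M1 (−1.77, or −2.60 after the shift of each array to its median). Its transcript thus stayed near the M2 level in both conditions in which Nos2 rose by more than 40-fold. Torin1-treated cells had 1.96 times less than Lamtor1-deficient cells, just inside the 2-fold limit.

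Ass1, argininosuccinate synthase, which joins citrulline and aspartate, was raised by Torin1 most of all. Its brightest probe gave a normalized signal of 9.42 in M1, 3.09 in M2, 6.17 without Lamtor1 and 18.7 with Torin1. M2 was the lowest array, and Torin1 exceeded even M1. The fold over M2 was 6.06 with Torin1 (log2 ratio 2.60) and 3.05 in M1 (1.61), but the M1 log2 ratio was 0.79, under 2-fold, after the shift of each array to its median. Without Lamtor1 it was 1.99-fold, just under the 2-fold limit. Torin1-treated cells had 3.04 times the signal of Lamtor1-deficient cells. The other Ass1 probe gave log2 ratios of 0.99 without Lamtor1, 2.96 with Torin1 and 1.89 in M1. The annotation of the brightest probe also lists a second, non-coding transcript, so its signal may be shared with a near-identical copy.

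Asl, argininosuccinate lyase, which completes the return of citrulline to arginine, stayed within 2-fold of M2 on every other array. Its normalized signal was 6.33 in M1, 7.91 in M2, 9.91 without Lamtor1 and 8.54 with Torin1. After the shift of each array to its median, however, the M1 log2 ratio moved from −0.32 to −1.14, past 2-fold. The highest array was 1.57-fold above the lowest, and 2.89-fold after that shift, and Torin1-treated and M2 cells were not separated. Within arrays, the log2 ratio of Ass1 to M2 exceeded that of Asl by 0.67 without Lamtor1, 2.49 with Torin1 and 1.93 in M1.

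The enzymes that carry ornithine into the polyamines were 1.4- to 1.7-fold higher without Lamtor1 by their brightest probes, and lower with Torin1. Odc1, ornithine decarboxylase, had a normalized signal of 23.9 in M1, 6.45 in M2, 10.8 without Lamtor1 and 4.84 with Torin1. It was 3.71-fold higher in M1 than in M2 (log2 ratio 1.89, or 1.07 after the shift of each array to its median), with log2 ratios of 0.74 without Lamtor1 and −0.41 with Torin1. The 4 Odc1 probes gave log2 ratios of 0.26 to 0.76, −0.62 to −0.29 and 1.54 to 1.89 in these comparisons, so they had 1 direction in each. Of these probes, 3 overlap each other by 22 to 55 bases and are not independent readings.

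Srm, spermidine synthase, had a normalized signal of 0.308 in M1, 9.08 in M2, 15.0 without Lamtor1 and 3.41 with Torin1. It was the lowest in M1 and the highest without Lamtor1, so that its order differed from that of Odc1 although both enzymes serve the same pathway. Srm fell 2.66-fold with Torin1 (log2 ratio −1.41) and 29.5-fold in M1 (−4.88), and its log2 ratio without Lamtor1 was 0.73. The M1 value ran from −5.71 after the shift of each array to its median to −4.18 with normexp correction. A non-overlapping probe gave −1.43, −4.37 and 0.75. The M1 signal was dim, at 4.69 times the lowest called well above background. Torin1-treated cells had 4.40 times less Srm than Lamtor1-deficient cells, and the 6 fibroblast markers were likewise all lower by 2-fold or more in that direct comparison, though 1 of them, Lum, was well above background on neither array. Their part in the Srm value was not tested.

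Sms, spermine synthase, had a normalized signal of 7.01 in M1, 14.6 in M2, 20.9 without Lamtor1 and 10.8 with Torin1 by its brightest probe. The log2 ratios to M2 were 0.52, −0.44 and −1.06 without Lamtor1, with Torin1 and in M1, and the last was −1.88 after the shift of each array to its median. The probes of this gene disagreed in size but not in direction. The others gave 0.23 and 0.35 without Lamtor1, −0.58 and −1.43 with Torin1, and −2.70 and −4.53 in M1. Sms was therefore past 2-fold with Torin1 by 1 of 3 probes and in M1 by all 3. The probe past 2-fold with Torin1 also gave the −4.53 in M1. Its M1 signal was dim, at 2.66 times the lowest called well above background.

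Sat1, the acetyltransferase that marks spermidine and spermine for breakdown or export, was abundant everywhere. Its normalized signal was 110 in M1, 64.8 in M2, 112 without Lamtor1 and 79.9 with Torin1. M2 was the lowest array with this scaling, and Lamtor1-deficient and M1 cells were not separated. The log2 ratios to M2 were 0.80 without Lamtor1, 0.30 with Torin1 and 0.76 in M1, and the last was −0.06 after the shift of each array to its median. M1 was then the lowest array, and the Lamtor1-deficient array stood 1.89-fold above it, so both the lowest array and the missing separation depend on the scaling.

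**Figure D2:**
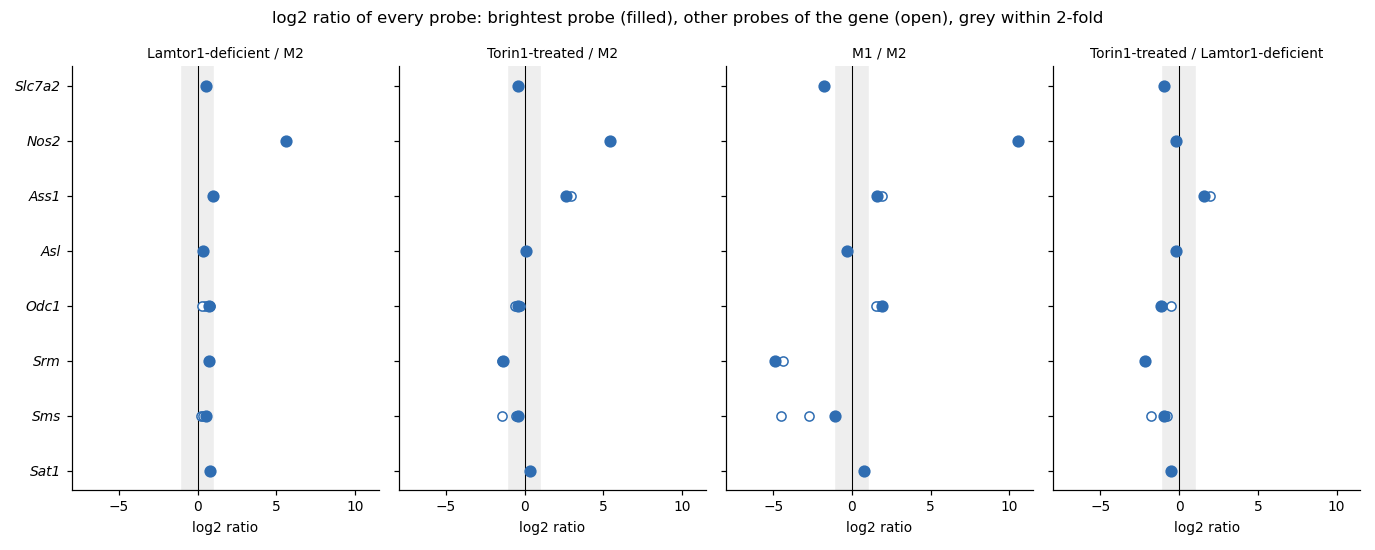
log2 ratio of each of the 15 probes of the 8 genes in the comparisons with M2 and in the direct ratio of Torin1-treated over Lamtor1-deficient cells, with filled points for the brightest probe, open points for other probes of the same gene and grey shading within 2-fold. Nos2 lies far to the right in all 3 comparisons with M2, and Ass1 lies to the right in the direct ratio.

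Counted by their brightest probes, 1 of the 8 genes differed 2-fold or more from M2 without Lamtor1, beside 17.6% of all genes with a symbol (8.9% higher and 8.74% lower). This was Nos2, which rose. With Torin1 there were 3, beside 26.1% of all genes (14.3% higher and 11.7% lower): Nos2 and Ass1 rose, and Srm fell. In M1 there were 6, beside 49.9% (30.7% higher and 19.2% lower): Nos2, Odc1 and Ass1 rose, and Srm, Slc7a2 and Sms fell. The median log2 ratio of the 8 genes was 0.73, −0.15 and 0.22 in these comparisons, while that of all genes was 0.04, −0.05 and 0.75. The last value came from dim genes, since over genes well above background on both arrays the median in M1 was 0.09. After the shift of each array to its median, 2 genes were higher without Lamtor1 (beside 9.73% of all genes higher), and in M1 2 were higher and 4 lower (beside 15.6% and 31.7%). All 8 brightest probes were well above background on all 4 arrays. Without Lamtor1 the count of changed genes did not exceed what the share of all genes gives, although Nos2 itself ranked 13th highest.

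The comparisons with M2 all use the same M2 array, so a deviation of that array would enter each of them. The direct ratio of Torin1-treated over Lamtor1-deficient cells is free of it. There, 3 of the 8 genes differed 2-fold or more, beside 24.5% of all genes (12.8% higher and 11.6% lower). Ass1 was higher with Torin1, and Srm and Odc1 were higher without Lamtor1. Slc7a2 and Sms lay just inside the limit, at 1.96- and 1.93-fold lower with Torin1. After the shift of each array to its median, 1 was higher and 4 lower, beside 8.74% and 18.0% of all genes. With the mean over the probes of a gene, Odc1 was at −0.97, just inside the limit, and Sms at −1.18, past it. Of the 24 pairs of neighbouring levels over all genes and arrays, 21 were separated by this within-array limit. Some of these were close to the software error of 0.204, such as Asl without Lamtor1 and with Torin1, which differed by 0.216. The count therefore does not describe differences between cultures.

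A wider list of 54 genes of arginine, polyamine, nitric oxide and creatine metabolism had 51 genes on the array. Without Lamtor1, 7 were higher and 4 lower by 2-fold or more, with Torin1 5 and 9, and in M1 10 and 18. The list's median log2 ratios were 0.20, −0.46 and −0.21. These counts include genes that were not well above background on both arrays, and on the genes that were, the counts were 7 and 3 of 43, 4 and 8 of 43, and 7 and 12 of 37. Among all genes above background on both arrays, 15.7%, 25.1% and 50.5% differed 2-fold or more in these comparisons. After the shift of each array to its median, the Torin1 counts were 3 and 20, beside 10.0% of all genes higher and 15.6% lower, and the M1 counts 7 and 27, beside 15.6% and 31.7%.

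The creatine branch was lower in M2 cells without Lamtor1 or with Torin1 at 3 of its 4 genes. Gatm, which transfers the amidino group of arginine to glycine as the first step of creatine synthesis, had processed signals of 45.0 in M1, 16982 in M2, 1392 without Lamtor1 and 384 with Torin1. Its log2 ratios were −3.46 without Lamtor1, −5.13 with Torin1 and −7.51 in M1. The M1 signal was dim, and the M1 ratio ran from −8.33 after the shift of each array to its median to −6.43 with normexp correction. Gamt, which methylates the product of Gatm to creatine, gave −2.33, −3.85 and −3.68, and its other probe −2.46, −4.22 and −3.89. Ckb, a creatine kinase, gave −1.07 without Lamtor1, −1.55 with Torin1 and −0.53 in M1 (−1.35 after the shift of each array to its median), and its other probe −0.96, −1.89 and −0.66. The creatine transporter Slc6a8 went the other way, at 1.21, 1.78 and 1.26, of which the M1 value was 0.43 after the shift of each array to its median. All 4 genes of this branch thus passed 2-fold by their brightest probes without Lamtor1 and with Torin1, 3 of them downward, beside 17.6% and 26.1% of all genes in either direction. Both enzymes of creatine synthesis were highest in M2 and lower on all other arrays. The 4 neutrophil granule genes were also highest on the M2 array, as given above, and their part in these values was not tested.

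Slc7a1, another cationic amino acid transporter, had the same order of arrays as Slc7a2 but passed 2-fold in every comparison with M2. It had processed signals of 311 in M1, 2332 in M2, 5077 without Lamtor1 and 697 with Torin1. It rose without Lamtor1 (log2 ratio 1.27) and fell with Torin1 (−1.40) and in M1 (−1.85). As with Slc7a2, Lamtor1-deficient and Torin1-treated cells lay on opposite sides of M2, and the direct log2 ratio was −2.67, beside −0.97 for Slc7a2. Slc25a29, a mitochondrial carrier of basic amino acids, rose without Lamtor1 (2.47, or 1.51 with normexp correction) and had a log2 ratio of 0.81 with Torin1. Slc3a2, the heavy chain that pairs with several amino acid transporters, was 1.00 with Torin1, 0.42 without Lamtor1 and 2.22 in M1, and Slc7a7, a light chain for basic amino acids, was 1.14 in M1. After the shift of each array to its median, the Torin1 value of Slc3a2 was 0.75 and the M1 value of Slc7a7 0.32, both under 2-fold.

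Among genes that serve nitric oxide synthesis, Gch1, the first enzyme of the cofactor tetrahydrobiopterin, rose in M1 (log2 ratio 3.26) and without Lamtor1 (1.08), and was 0.28 with Torin1. Its other probe gave 1.70, 0.28 and 0.19, so the call without Lamtor1 rests on 1 of 2 probes. Gchfr, its feedback regulator, rose without Lamtor1 (2.41) from a dim M2 signal, and gave 1.12 with normexp correction. Spr, sepiapterin reductase, which completes the cofactor, rose with Torin1 (1.47) and fell in M1 (−1.72), where Pts, the enzyme before it, fell too (−1.54). Qdpr, which recycles the cofactor, fell in M1 (−5.21). Nosip rose (2.61) and Nostrin fell (−2.65) in M1, both being proteins named after nitric oxide synthase.

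In polyamine metabolism, Azin1, which shields ornithine decarboxylase from degradation, rose without Lamtor1 (log2 ratio 1.23), with Torin1 (1.22) and in M1 (2.44), and the Torin1 value was 0.98 after that shift. The probes that the array names Amd2, an S-adenosylmethionine decarboxylase, may detect a near-identical family member, and which gene they read was not settled here. They gave 0.25, −1.56 and −2.60 by the brightest, but −0.36 with Torin1 and −0.04 in M1 by another. Smox, spermine oxidase, rose in M1 (3.45), with −0.75 without Lamtor1 and 0.59 with Torin1. Mri1, of the salvage of methylthioadenosine that polyamine synthesis releases, fell in M1 (−3.96). Eif5a, the only protein family that carries the spermidine-derived residue hypusine, fell with Torin1 (−1.07) and in M1 (−1.84), and Dhps, which starts that modification, was at 1.02 without Lamtor1 and at 0.92, under 2-fold, with quantile normalization.

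On the ornithine to proline branch, Oat, ornithine aminotransferase, fell in M1 (log2 ratio −1.42). It was −0.87 with Torin1, and −1.11 after the shift of each array to its median. Aldh18a1, which starts proline synthesis from glutamate, fell with Torin1 (−2.68) and was at least 5.46-fold lower in M1, where it was not well above background. With normexp correction its log2 ratios were −1.26 with Torin1 and −0.92 in M1, the latter under 2-fold. Pycr3 fell in M1 (−2.02). The brightest probe of Pycr1, the last enzyme of proline synthesis, fell with Torin1 (−3.30) and was at least 12.7-fold lower without Lamtor1, but the other probe gave −0.89 and −0.03, so the probes disagreed. With normexp correction the brightest probe gave −1.75 and −2.08.

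**Figure D3:**
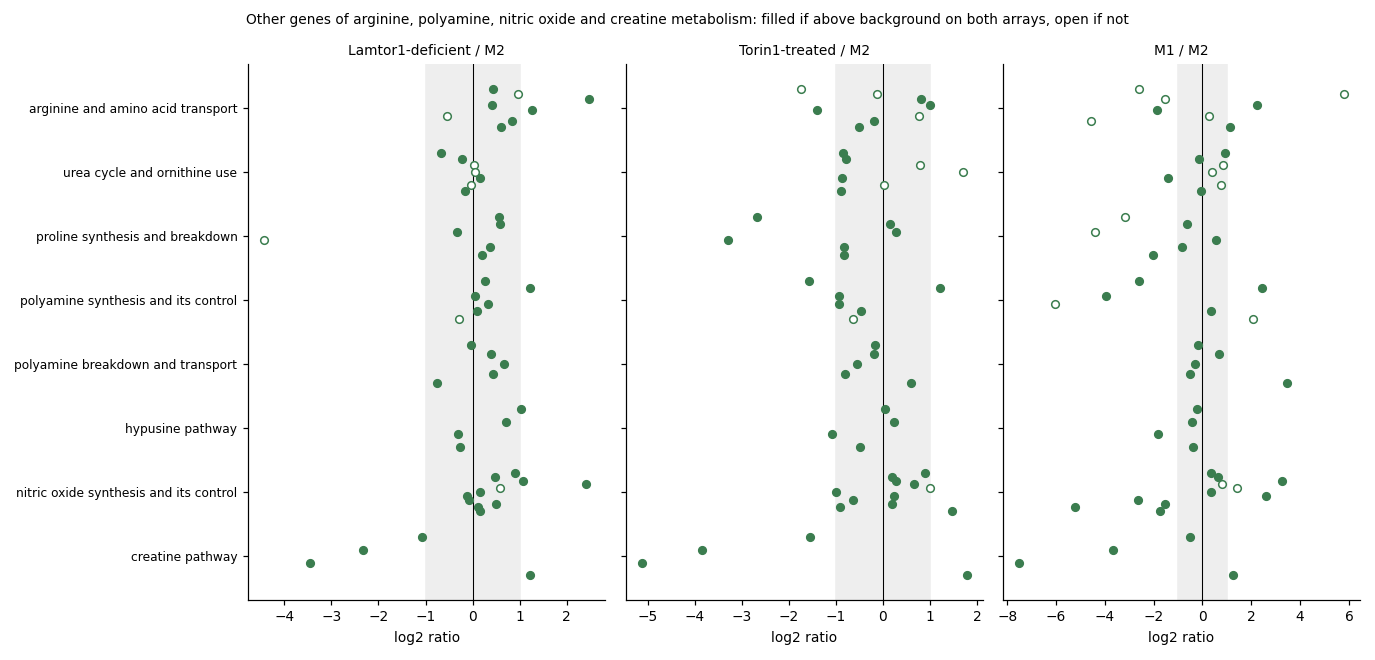
log2 ratio to M2 of the 51 wider-list genes by pathway group (rows), for Lamtor1-deficient, Torin1-treated and M1 cells, with filled points for genes well above background on both arrays, open points for others, and grey shading within 2-fold; the horizontal scales differ between panels. In the creatine row Gatm reaches −3.46, −5.13 and −7.51, the farthest left of its row in each panel.

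Across 12990 genes that all 4 arrays called well above background, those closest to Nos2 by the Euclidean distance of their 3 log2 ratios to M2 were Cd300lf (distance 2.84), Clec4e (3.62) and Cd200 (4.07). Slc7a2 had much closer neighbours, namely Zfp27 (0.08), Prdx3 (0.13) and Hmgn2 (0.19), whose log2 ratios were likewise small except in M1. These distances rest on 4 arrays, and the 3 ratios share the M2 array.

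Promoter sequence from RefSeq (GRCm38.p6) was at hand for 4 of the 8 genes, namely Ass1, Odc1, Sms and Sat1, and was not used here for Slc7a2, Nos2, Asl and Srm. The 250 bases before the start were searched on both strands for TTC and GAA 4 bases apart (the spacing bound by STAT6), TTC and GAA 3 bases apart (gamma-activated), GAAA and GAAA 2 bases apart (interferon-stimulated response), GGG and TTTCC 2 bases apart (kappaB-type), TGATGNAA (a C/EBP-ATF composite) and the E-box CACGTG. The E-box was found in Ass1 and in 1 of the 2 windows of Sms, beside 6.02% of all 32851 windows, and no other of these motifs was found in the 5 windows of the 4 genes. The other motifs, in the order named, were in 5.85%, 7.02%, 2.98%, 1.41% and 3.45% of all windows. The STAT6 and gamma-activated patterns may overlap but cannot start at the same base. The Ass1 window is shown because this gene rose most with Torin1 among the genes with promoter sequence, and capitals mark the E-box, which starts at position −36 from the start. It lies on the plus strand at chr2:31470020-31470269 of GRCm38.p6.
Ass1 upstream: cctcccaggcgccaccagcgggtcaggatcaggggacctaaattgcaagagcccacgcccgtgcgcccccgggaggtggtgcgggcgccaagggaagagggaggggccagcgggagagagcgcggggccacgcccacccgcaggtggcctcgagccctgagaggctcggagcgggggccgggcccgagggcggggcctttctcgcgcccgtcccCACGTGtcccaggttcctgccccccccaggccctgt
Its content of G and C is 75.6%, beside a median of 52.4% over all windows. Sms, which holds the same E-box at position −196 of 1 of its 2 windows, had a log2 ratio of −0.44 with Torin1. A match describes letters and not binding, and the part of the E-box in these values was not tested.

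**Figure D4:**
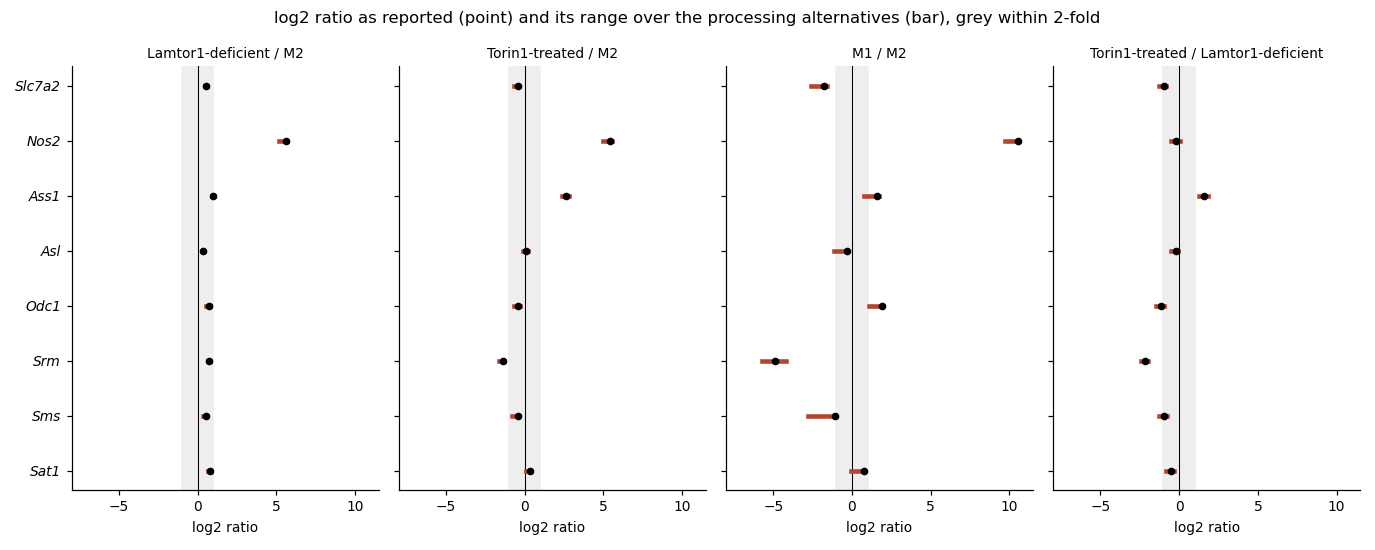
log2 ratio of each of the 8 genes as reported (black points) and its range over the 10 alternative settings of scaling, background, probe choice and outlier spots (bars), with grey shading within 2-fold, in the same comparisons. The background filters and the floor among these settings cannot change the values of these genes. The bars of Nos2 run from 5.19 to 5.67 without Lamtor1 and from 4.96 to 5.51 with Torin1, while several genes cross the limit of 2-fold in the direct ratio.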

How the data were processed

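RNA of the 4 cultures was labelled with Cy3 and hybridized to 1 Agilent mouse array each. The authors deposited scanner files with spot intensities. The processed intensity is background-subtracted and corrected for trends by Feature Extraction (version 10.7.3.1 per the file headers and 10.5.1.1 per the labels) and is not normalized between arrays. The deposited series table repeats these intensities, within 0.497%. Following the study's methods, signals under 1.0 were set to 1.0 and each array was divided by its 75th percentile over non-control probes and set on the log2 scale. Control and outlier spots were left out, 0 spots were saturated, and spots of 1 probe were averaged. Probes well above background made up 50.9% to 55.4% of each array. A gene was read by its brightest probe, the one with the highest mean log2 signal over the arrays, and a change is 2-fold or more. Where a probe was called on 1 array of a pair and not on the other, the fold is a bound, taken against the lowest signal called on that array (15.7 to 21.6 intensity units) and written as "at least". Number of arrays limits the precision, and 1 array per condition allows no test. The self-test on simulated data recovered 200 of 200 planted changes with 0 false calls over 55676 probes. It checks the calculation only and gives no error rate for these arrays, because 1 array per condition shows no spread between cultures.

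Members and gene lists were chosen with earlier results of these data known. Named were 8 genes of the set, the 25 genes of the wider list that changed 2-fold or more in a comparison with M2 while well above background on both arrays, the 3 nearest genes to Nos2 and Slc7a2, Lamtor1, and the marker genes of the cell types checked. A few further genes of the set and lists are not reported here. Probe coordinates are those of the annotation on mm9. RefSeq promoters are on GRCm38.p6, and no coordinates were converted. No genome was used here, so exonic or intronic positions are not given. Alternatives were median scaling, a 75th percentile taken over called probes alone, quantile normalization, normexp with offset 50, filters and a floor on dim probes, outlier spots kept, the mean over probes, the series table, and 1.5- and 3-fold limits. Alternatives for the direct ratio, for the order of levels and for named genes of the wider list were added after seeing the data. Values were computed in Python 3.11.15 (pandas 2.3.3, NumPy 2.4.6), plots drawn with matplotlib 3.10.9, and normexp and quantile values taken from limma 3.58.1 in R 4.3.3.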

Additional observations from a re-analysis of the deposited data

How the results depend on the processing

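No paired analysis was possible because each condition has 1 array, and for the same reason no replicate could be left out. Of the 10 alternatives, the background filters and the floor on dim probes could not move the ratios of these 8 genes. Their brightest probes were well above background on every array, and the series table repeats the same intensities. Over the 10 alternatives, the sign of the log2 ratio to M2 was kept by all 8 arginine genes without Lamtor1, by 7 with Torin1 (not Asl, −0.14 with the shift to the median) and by 7 in M1 (not Sat1). The side of the 2-fold limit was kept by 7 (not Ass1), 8 and 6 (not Ass1 or Asl), and in the direct ratio of Torin1-treated over Lamtor1-deficient cells by 5 (not Slc7a2, Odc1 or Sms). That shift moved the median of all genes by −0.25 with Torin1, −0.82 in M1 and −0.31 in the direct ratio, and quantile normalization moved it by −0.46 in M1. A 75th percentile taken over called probes alone moved it by 0.15 in the direct ratio. Without Lamtor1, 2 of the 8 genes counted as changed after the shift to the median and 5 with a 1.5-fold limit, beside 17.9% and 31.8% of all genes. Of the wider list, 20 counted as changed without Lamtor1 and 34 with Torin1 under the 1.5-fold limit (beside 31.8% and 44.7% of all genes), and 5 and 7 of 51 under the 3-fold limit (beside 9.14% and 12.7%). After the shift to the median the Torin1 count was 23, beside 25.7% of all genes. In the direct ratio, 5 of the 8 genes counted as changed after the shift to the median (beside 26.8% of all genes), 5 with the 1.5-fold limit (43.7%) and 2 with the 3-fold limit (11.8%). The pairs of neighbouring levels separated numbered 21 or 22 under the 4 other scalings and background corrections. Of the 25 named genes of the wider list, 23, 19 and 19 kept their side of the limit without Lamtor1, with Torin1 and in M1. The M1 log2 ratio of Slc25a29, which was not well above background in M1, was −1.54 and reversed to 0.31 with normexp correction. The cause of these changes was not tested. Genes near background limit what the arrays can show, and a difference under 2 technical SDs was not detectable.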
